A study of Mus musculus with 6 samples.

Results

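Glycogen is the branched glucose polymer in which the liver stores sugar after a meal and from which it releases glucose between meals. Its turnover was read here from 9 genes, chosen by symbol from the count table of the series, and all 9 were found among its 56674 rows. They are Gyg (glycogenin, the protein primer of a new particle), Ugp2 (which makes the sugar donor UDP-glucose), Gys2 (the liver form of glycogen synthase), Gbe1 (the branching enzyme) and Pygl (the liver form of glycogen phosphorylase), with the regulators Ppp1r3b, Ppp1r3c, Ppp1r3g and Phka2. The livers came from male C57BL/6 mice, an inbred strain widely used in the laboratory, reared for 71 weeks. PB-MP mice (3 libraries) ate chow containing polypropylene black microplastic, and control mice (3 libraries) ate normal chow. The labels give no dose and no statement that the libraries of a group are from separate animals, so the p-values reflect the spread among these libraries, part of which may be technical.

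Chains are lengthened from UDP-glucose by the synthase and shortened by the phosphorylase, and the balance between them is set by phosphorylation. Phosphorylase kinase, of which Phka2 is the liver regulatory alpha subunit, switches the phosphorylase on downstream of glucagon and adrenergic signals. Protein phosphatase 1 reverses this and activates the synthase when a targeting subunit holds it on the glycogen particle, and Ppp1r3b, Ppp1r3c and Ppp1r3g encode such subunits.

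Promoter sequence from RefSeq (build GRCm38.p6, the 250 bases before the annotated start site) was at hand for 7 of the 9 genes, with 8 windows because Ugp2 has 2; Gys2 and Ppp1r3b had no entry. Gbe1 is shown because it had the largest difference between the diets. Ppp1r3c is shown because its window was the only member window with an E-box, an element read by clock factors. Capitals mark the E-box CACGTG. The Gbe1 window lies at chr16:70313699-70313948 on the plus strand and the Ppp1r3c window at chr19:36736605-36736854 on the minus strand.
Gbe1: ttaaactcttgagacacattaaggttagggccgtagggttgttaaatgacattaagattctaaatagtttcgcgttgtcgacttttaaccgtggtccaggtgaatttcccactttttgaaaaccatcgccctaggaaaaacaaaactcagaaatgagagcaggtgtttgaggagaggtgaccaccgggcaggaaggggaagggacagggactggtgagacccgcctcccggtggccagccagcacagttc
Ppp1r3c: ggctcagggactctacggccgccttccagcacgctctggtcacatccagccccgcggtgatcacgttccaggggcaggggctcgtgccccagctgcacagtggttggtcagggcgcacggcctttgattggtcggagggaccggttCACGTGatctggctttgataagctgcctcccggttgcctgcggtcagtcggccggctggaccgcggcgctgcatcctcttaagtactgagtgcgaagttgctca
The E-box of Ppp1r3c begins 104 bases before the start site and overlaps none of the other motifs searched. On both strands, CACGTG was in 6.02% of all 32851 windows of this length in the table. The cAMP response element TGACGTCA (1.55% of all windows) and the forkhead element TGTTTAC (3.17%) were in 0 of the 8 member windows. The CCAAT box, by its letters CCAAT (33.8% of all windows), was in those of Ppp1r3c and Ppp1r3g and in 1 of the 2 of Ugp2.

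Each value is a raw read count of a poly(A)-selected library, given as CPM (counts per 1000000 reads after scaling of the libraries by the trimmed mean of M-values, TMM). The PB-MP libraries held 70603124, 81174742 and 90483598 counted reads and the control libraries 75897165, 68357478 and 112566641. The 13 mRNAs of the mitochondrial genome took 8.73% to 10.1% of the reads in PB-MP and 14.2% to 15.1% in control. The 18S ribosomal RNA took 9.42% in PB-MP replicate 2 and 11.2% in control replicate 2, against 0.707% to 3.61% in the other 4 libraries. The 8 hepatocyte markers, among them Alb and Ttr, summed to 71012 to 82240 CPM in PB-MP and 65549 to 84042 CPM in control. Acta1, Ckm, Myh4, Tnnt3 and Mb, 5 of the 6 skeletal muscle markers, had 0 reads in every library. The diets did not overlap in 3 marker sums. They overlapped in those of hepatocytes, sinusoidal endothelial cells, cholangiocytes, adipocytes, skeletal muscle, erythroid cells and lymphocytes. Gene by gene, the libraries of the diets did not overlap for 19.8% of all genes tested. Kupffer cell markers summed to 87.8 to 189 CPM in PB-MP and 65.5 to 84.6 CPM in control, with 3 of 7 markers higher in every PB-MP library, and neutrophil markers to 3.19 to 5.60 CPM in PB-MP and 1.39 to 2.04 CPM in control, with Mpo at 0 reads; of 5 neutrophil markers tested, 4 were higher in every PB-MP library and 1, Elane, was lower in every one (log2 fold change -0.79). Stellate cell and fibroblast markers summed to 169 to 284 CPM in PB-MP and 297 to 309 CPM in control, with 5 of 8 lower in every PB-MP library. The part of these cells in the values below was not tested. In bulk liver, fewer cells of a type and less RNA per cell cannot be told apart.

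The comparison asked whether long dietary exposure to the plastic alters hepatic expression, with metabolism named in the series title. With a threshold of 0.05 on the adjusted p (quasi-likelihood test of edgeR, p-values adjusted over 17871 genes by Benjamini-Hochberg), 0 of the 9 glycogen genes differed between the diets, and 0% of all genes did. All 9 passed the filter on low counts, and their smallest adjusted p was 0.338, for Gbe1. Without adjustment, 1 of the 9 had a p below 0.05 and was lower in PB-MP. Of all genes 12.1% had such a p, 7.35% higher and 4.74% lower in PB-MP. DESeq2 called 0 of the 9 (2.46% of all genes with an adjusted p) and limma-voom 0. For 0 of the 9 did the libraries of the diets fail to overlap, against 19.8% of all genes. The median log2 fold change (PB-MP over control) of the 9 was -0.28, with 8 below 0, against 0.01 over all genes, of which 49.4% were below 0. Scaling by library size only moved the median of all genes to 0.23, and Ugp2, Pygl and Ppp1r3c then lay above 0. In a simulation with 200 changed genes of at least 1 CPM, the test found 42.4% of 4-fold changes, 2.99% of 2-fold changes and 0% of 1.5-fold changes. These shares hold for that number of changed genes, and the number in the present data is not known.

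**Figure D1:**
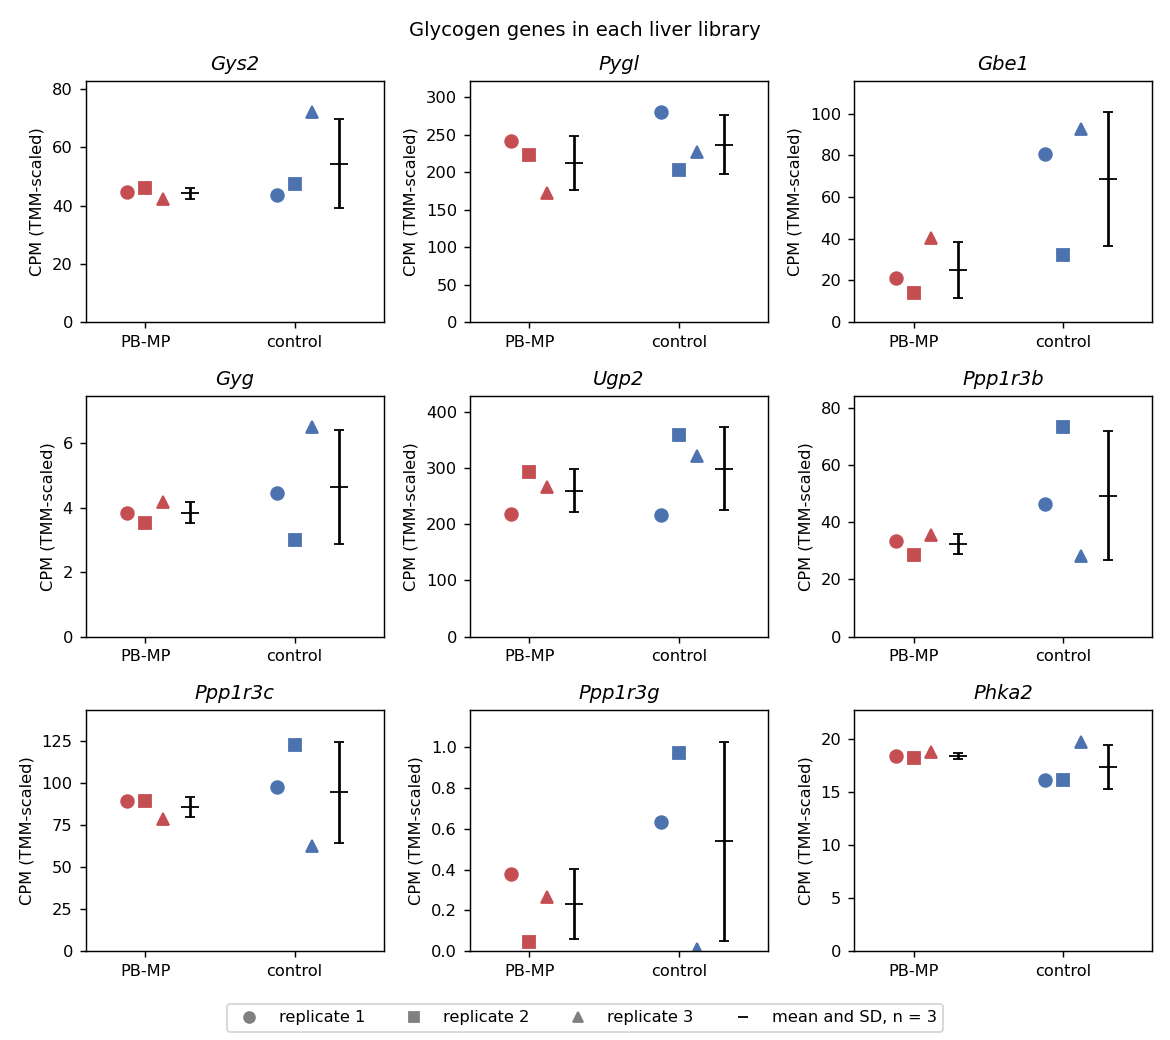
TMM-scaled CPM of the 9 glycogen genes (vertical axes, each from 0) in the 3 PB-MP and 3 control libraries, with the mean and SD of each diet. The diets overlap in every panel, and relative to the mean the SD is larger in control than in PB-MP for 7 of the 9 genes, the others being Pygl and Gbe1.

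Among the enzymes of synthesis, Gyg stood at 3.84, 3.52 and 4.175 CPM in the PB-MP libraries (replicates in order, here and below) and at 4.45, 3.003 and 6.505 CPM in the control libraries. The PB-MP values lay inside the control range. The log2 fold change was -0.28 ± 0.31 (SE), and leaving out control replicate 3 turned it to 0.04. Ugp2 had 218, 293 and 267 CPM in PB-MP and 216, 358 and 322 CPM in control, which puts all PB-MP libraries within the control range (log2 fold change -0.20 ± 0.23). Its exons share 78 bases with the opposite-strand gene Gm12043 in the annotation, which had at most 5 reads per library.

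Gys2, whose enzyme carries out the regulated step of synthesis, had 44.8, 45.9 and 42.2 CPM in PB-MP and 43.6, 47.5 and 71.96 CPM in control. The 3 PB-MP libraries and control replicates 1 and 2 lay close together, and control replicate 3 stood above them. The means were 44.3 ± 1.88 CPM in PB-MP and 54.4 ± 15.4 CPM in control (SD, n = 3 each). The log2 fold change of -0.30 ± 0.21 was -0.05 without control replicate 3, and its 95% interval of -0.80 to 0.21 lay within -1 to 1, as for 5 of the 9 genes and 45.7% of all genes.

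Gbe1 had the largest difference of the 9. It stood at 21.2, 14.0 and 40.1 CPM in PB-MP and at 80.7, 32.4 and 92.6 CPM in control. PB-MP replicate 3 lay above control replicate 2, and the other libraries of the diets were apart. The means were 25.1 ± 13.5 CPM in PB-MP and 68.6 ± 31.9 CPM in control (SD, n = 3 each), with a log2 fold change of -1.45 ± 0.50 and a 95% interval of -2.62 to -0.28 (edgeR, unadjusted p = 0.0222, adjusted p = 0.338). In all, 3.85% of genes tested had a log2 fold change of -1 or lower, and 6.52% had a smaller p than Gbe1. On all 6 libraries, DESeq2 gave Gbe1 a log2 fold change of -1.44 (adjusted p = 0.0791). Limma-voom with quality weights gave -1.87 (adjusted p = 0.0857). Over the 18 alternatives its adjusted p ran from 0.0791 to 0.654. Within each diet the highest library was 2.86 times the lowest. The unadjusted p was 0.0664 without PB-MP replicate 1, 0.0621 without PB-MP replicate 2, 0.0585 without control replicate 1 and 0.0710 without control replicate 3, against 0.00846 without PB-MP replicate 3 and 0.00599 without control replicate 2. The last 2 are the libraries in which the diets overlap for Gbe1, so leaving them out enlarges the difference by construction. With both left out the log2 fold change was -2.32 (adjusted p = 0.126). Replicate 2 was the lowest and replicate 3 the highest library in both diets. A fit with a term for replicate number (replicate block) gave a log2 fold change of -1.45 ± 0.22 (edgeR, unadjusted p = 0.000913, adjusted p = 0.386). The labels do not say whether that number pairs the libraries.

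**Figure D2:**
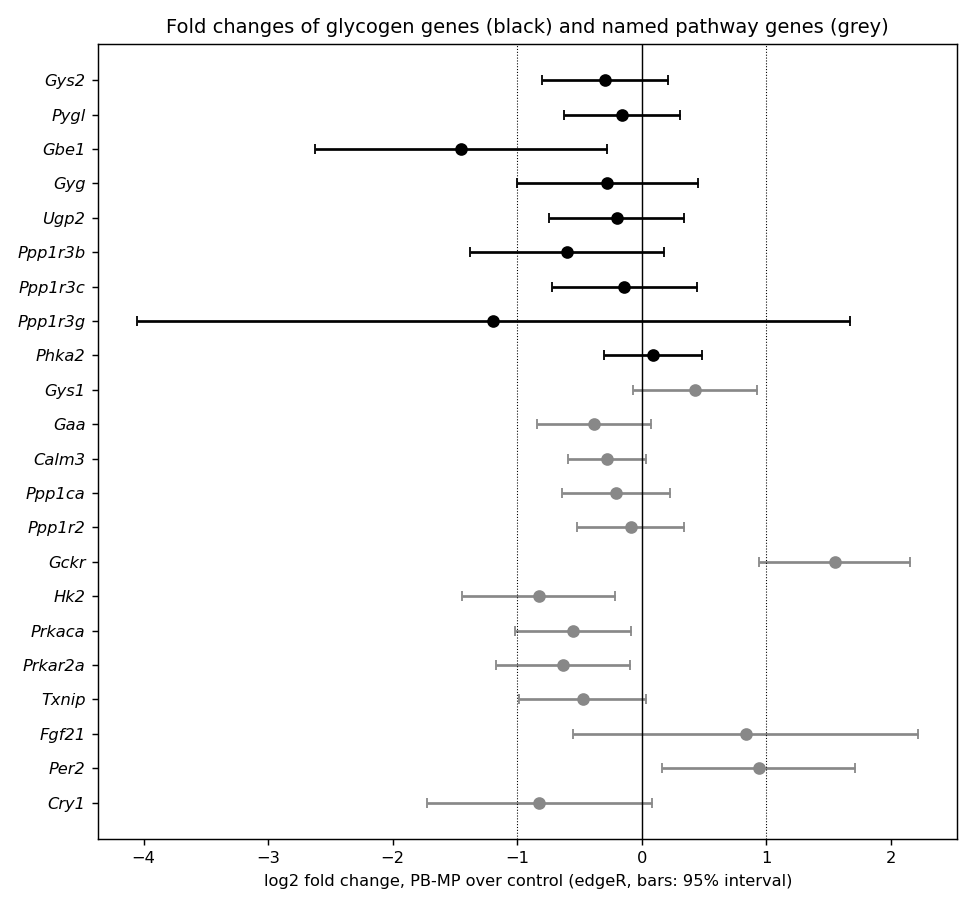
Log2 fold change, PB-MP over control, with its 95% interval from edgeR (horizontal axis) for the 9 glycogen genes in black and for 13 genes of the wider pathway in grey, dotted lines marking -1 and 1. Among the glycogen genes the interval of Gbe1 alone lies wholly below 0, and that of Ppp1r3g is the widest, from -4.05 to 1.67.

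On the side of breakdown, Pygl had 241, 223 and 172 CPM in PB-MP and 280, 203 and 227 CPM in control. The libraries interleaved, with a log2 fold change of -0.16 ± 0.20 and a 95% interval of -0.63 to 0.31. Phka2 had 18.4, 18.2 and 18.8 CPM in PB-MP and 16.2, 16.2 and 19.8 CPM in control. It was the steadiest of the 9 and the only 1 with an estimate above 0 (log2 fold change 0.09 ± 0.17). The antisense gene Gm15243, which shares 115 exon bases with it, had 0 reads in every library. The ratio of Gys2 to Pygl, each as CPM per kilobase of its longest annotated transcript, was 0.220, 0.244 and 0.291 in PB-MP and 0.185, 0.278 and 0.376 in control, so the PB-MP ratios lay inside the control range.

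The 3 targeting subunits of protein phosphatase 1 varied together among the controls. Ppp1r3b, the subunit typical of liver, had 33.5, 28.5 and 35.3 CPM in PB-MP and 46.2, 73.2 and 28.3 CPM in control (log2 fold change -0.60 ± 0.33, adjusted p = 0.503). Ppp1r3c, also named PTG, had 89.3, 89.7 and 78.8 CPM in PB-MP and 98.0, 123 and 63.0 CPM in control (log2 fold change -0.14 ± 0.25). Ppp1r3g had 30, 4 and 26 reads in PB-MP (0.380, 0.0473 and 0.267 CPM) and 46, 59 and 1 in control (0.631, 0.974 and 0.00951 CPM). For each of these subunits control replicate 2 was the highest and control replicate 3 the lowest of the 6 libraries.

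The single read of Ppp1r3g in control replicate 3 is below the limit that a count of 0 allows, 3 reads, or 0.0285 CPM there (counting error only). Its 95% interval on the log2 scale, -4.05 to 1.67, leaves a wide range in both directions, and limma-voom put its estimate at 0.29 against -1.19 in edgeR. For Ppp1r3b the unadjusted p was 0.0103 without control replicate 3 (adjusted p = 0.486), at a log2 fold change of -0.88, against -0.23 without control replicate 2. As shares of the summed CPM per kilobase of the 7 glycogen-targeting subunit genes, Ppp1r3c made up 79.8%, 82.2% and 77.5% in PB-MP and 76.1%, 71.6% and 76.2% in control. These shares, looked at after the single values were seen and not tested, did not overlap. Ppp1r3b made up 18.6%, 16.2% and 21.6% in PB-MP and 22.3%, 26.5% and 21.2% in control.

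**Figure D3:**
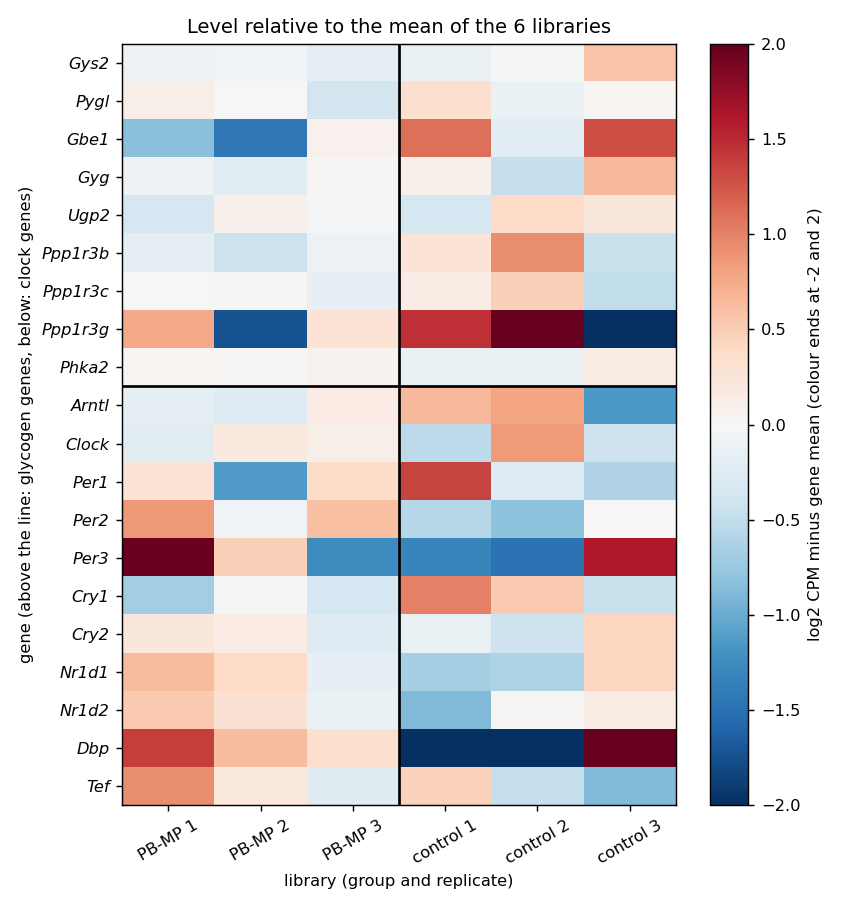
Log2 CPM of each gene minus its mean over the 6 libraries (colour) for the 9 glycogen genes above the line and 11 clock genes below it, with the PB-MP libraries on the left and the control libraries on the right. Control replicate 3 is the highest library for Gys2, Gbe1, Gyg and Phka2 and the lowest for Ppp1r3b, Ppp1r3c and Ppp1r3g.

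Much of the variation of the glycogen genes thus lay between control libraries. Control replicate 3 was the highest or the lowest of the 6 libraries for 7 of the 9 genes, against 30.5% of all genes, and was singled out after the values were seen. It was the highest for Gys2, Gbe1, Gyg and Phka2, and the lowest for the 3 targeting subunits. For Ppp1r3g that place rests on 1 read, against 4 reads in PB-MP replicate 2. The 3 subunits also varied together among the controls, so the 7 genes are not separate observations. Control replicate 2 was the highest or the lowest for 6 of the 9, against 31.1% of all genes, being the highest for Ugp2 and the 3 targeting subunits and the lowest for Gyg and Phka2. The coefficient of variation was larger in control than in PB-MP for 7 of the 9 genes, against 52.1% of all genes, and its median over the 9 was 10.9% in PB-MP and 31.9% in control. Over all genes the medians were 22.7% in PB-MP and 22.1% in control. Among genes averaging at least 1 CPM they were 19.3% in PB-MP and 17.3% in control. Of those genes, 48.6% had the larger coefficient of variation in control.

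Some clock genes were also at an extreme in control replicate 3. Dbp, a clock output factor, had 26.3, 15.4 and 12.6 CPM in PB-MP and 2.003, 2.24 and 44.5 CPM in control. Arntl, a core activator of the clock, had 6.61, 6.32 and 8.52 CPM in PB-MP and 11.8, 13.2 and 3.39 CPM in control. Control replicate 3 was thus the highest library for Dbp and the lowest for Arntl, both named after their values were seen. Over the whole clock list this library was the highest or lowest for 4 of the 11 genes, a share near the 30.5% of all genes. It was the highest for 2 of these, Dbp and Cry2, and the lowest for 2, Arntl and Tef. Of the 10 genes that handle glucose and glucose 6-phosphate it was the highest or lowest for 3. The same held for 4 of 11 other glycogen enzymes and 3 of 6 genes of phosphorylase kinase and its calmodulin. It also held for 2 of 6 genes of protein phosphatase 1 and 4 of 16 of insulin, glucagon and adrenergic control. Of the 9 fasting and feeding responsive genes it was the lowest for 4 and the highest for 0. Over all genes it was the lowest for 16.9% and the highest for 13.6%. The labels give neither the hour of collection nor the feeding state, and the part of either in these values was not tested.

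Per length, Ugp2 had the highest mean level in both diets and Ppp1r3g the lowest. Mean CPM per kilobase of Ugp2 was 96.7 ± 14.2 in PB-MP and 111 ± 27.6 in control (SD, n = 3 each). Pygl followed at 67.3 ± 11.4 in PB-MP and 75.1 ± 12.5 in control, and overlapped Ugp2 in control though not in PB-MP. Ppp1r3c came next at 31.5 ± 2.27 in PB-MP and 34.7 ± 11.1 in control. Gys2 was at 16.7 ± 0.708 in PB-MP and 20.5 ± 5.78 in control, and overlapped Ppp1r3c, Gbe1 and Ppp1r3b among the controls. Gbe1 overlapped Ppp1r3c there as well.

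Gbe1 and Ppp1r3b were close in level and changed places, Gbe1 being at 6.72 ± 3.61 CPM per kilobase in PB-MP and 18.4 ± 8.54 in control, and Ppp1r3b at 7.40 ± 0.806 in PB-MP and 11.2 ± 5.16 in control. Their libraries overlapped in both diets, so the order of this pair is within the spread, and Gbe1 overlapped Phka2 in PB-MP as well. Phka2 was at 4.25 ± 0.064 in PB-MP and 4.01 ± 0.478 in control and Gyg at 2.001 ± 0.170 in PB-MP and 2.42 ± 0.916 in control. Ppp1r3g averaged 0.0969 in PB-MP and 0.225 in control. With the median in place of the longest transcript, the control means of Ugp2, Pygl and Phka2 were 230, 126 and 8.80, and Gys2 was at 36.6, above Ppp1r3c at 34.7.

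**Figure D4:**
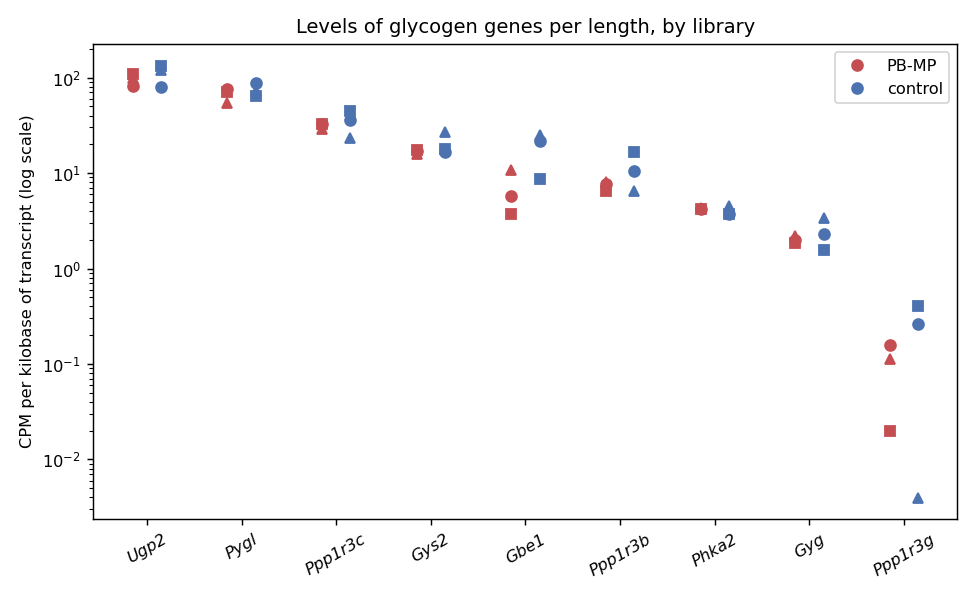
CPM per kilobase of the longest annotated transcript (log axis) of the 9 glycogen genes in each library, PB-MP in red and control in blue, circles, squares and triangles being replicates 1, 2 and 3, ordered by the control mean. Levels run from Ugp2, at 81.3 to 109 in PB-MP and 80.4 to 134 in control, down to Ppp1r3g, below 0.5 in every library.

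The closest profiles among genes of at least 1 CPM were found by the root mean square difference of log2 CPM over the 6 libraries, each gene centred on its own mean (11358 genes compared). For Gys2 they were St3gal3, Nadk and Pias4, at 0.09, 0.11 and 0.12. For Pygl they were Galnt2, Nol9 and Stau1, at 0.03, 0.04 and 0.05. The profile of Gys2 itself had a root mean square of 0.26 about its mean and that of Pygl 0.22.

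The rest of the pathway was read from 7 lists. Of 73 genes with a row in the table, 69 were tested, and edgeR called 0 higher and 0 lower in PB-MP (smallest adjusted p = 0.207). An unadjusted p below 0.05 was found for 8 of the 69, 4 higher and 4 lower, beside the 12.1% of all genes given above. The libraries of the diets did not overlap for 6 of the 69 that were higher in PB-MP and 6 that were lower, against 19.8% of all genes. Of the genes named below, Gys1, Phkg2, Gckr, Slc37a4 and Gcgr were among those higher. Calm3, Hk2, Prkaca, Prkar2a and Txnip were among those lower. The median log2 fold change of the 69 was -0.06. DESeq2 called 1 of them, Gckr, and limma-voom 0.

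Of 11 other glycogen enzymes, 4 had estimates above 0 and 7 below, with a median of -0.14. Gys1, the synthase of muscle and most other tissues, was low, at 2.38 ± 0.095 CPM in PB-MP and 1.77 ± 0.070 CPM in control (SD, n = 3 each), and its libraries did not overlap (log2 fold change 0.43 ± 0.21, adjusted p = 0.464). Gaa, which degrades glycogen in lysosomes, had a log2 fold change of -0.38 ± 0.19. Pgm1, which interconverts glucose phosphates on the way into and out of glycogen, had 208 ± 8.90 CPM in PB-MP and 229 ± 42.6 CPM in control, and was named after its values were seen.

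Of 6 tested genes of phosphorylase kinase and its calmodulin subunit, 3 lay above 0 and 3 below. Calm3, which encodes calmodulin, had a log2 fold change of -0.28 ± 0.13 (edgeR adjusted p = 0.453), and its libraries did not overlap between the diets. Phkb, the beta subunit, was named after its values were seen. It had 1.002, 0.296 and 0.246 CPM in PB-MP and 0.316, 0.545 and 7.79 CPM in control, where control replicate 3 alone held 819 reads. The catalytic subunit gene Phkg2, also named after its values were seen, was at 24.0 ± 3.84 CPM in PB-MP and 18.9 ± 1.62 CPM in control. How reads of Phkb were counted could not be checked, since the annotation used by the authors is not given in the sources used here, so its level is not set beside that of Phkg2.

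Of 6 tested genes of protein phosphatase 1 and its other glycogen subunits, the median was -0.07. Ppp1ca, a catalytic subunit, had a log2 fold change of -0.20 ± 0.18 and Ppp1r2, an inhibitor, -0.09 ± 0.18. Among 10 genes that handle glucose and glucose 6-phosphate, Gckr, the regulatory protein of glucokinase, had 125 ± 15.7 CPM in PB-MP and 42.7 ± 13.1 CPM in control (log2 fold change 1.55 ± 0.26, edgeR adjusted p = 0.207). Hk2, a hexokinase, had 0.788 ± 0.146 CPM in PB-MP and 1.40 ± 0.094 CPM in control (log2 fold change -0.83 ± 0.26). Slc37a4, which carries glucose 6-phosphate into the endoplasmic reticulum, was at 0.71 ± 0.30, and was named after its values were seen.

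Of 16 genes of insulin, glucagon and adrenergic control, 6 lay above 0 and 10 below. Prkaca, a catalytic subunit of protein kinase A, had a log2 fold change of -0.55 ± 0.20 (adjusted p = 0.351) and Prkar2a, a regulatory subunit, -0.63 ± 0.23. Gcgr, the glucagon receptor, named after its values were seen, had 237, 194 and 300 CPM in PB-MP and 185, 146 and 174 CPM in control, without overlap (0.53 ± 0.20, adjusted p = 0.375). Of 9 genes that respond to fasting and feeding, Txnip, which responds to glucose, had a log2 fold change of -0.48 ± 0.22 and Fgf21, a hepatic hormone, 0.84 ± 0.59. Of the 11 clock genes tested, the repressors Per2 and Cry1 were at 0.94 ± 0.33 and -0.82 ± 0.38.

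**Figure D5:**
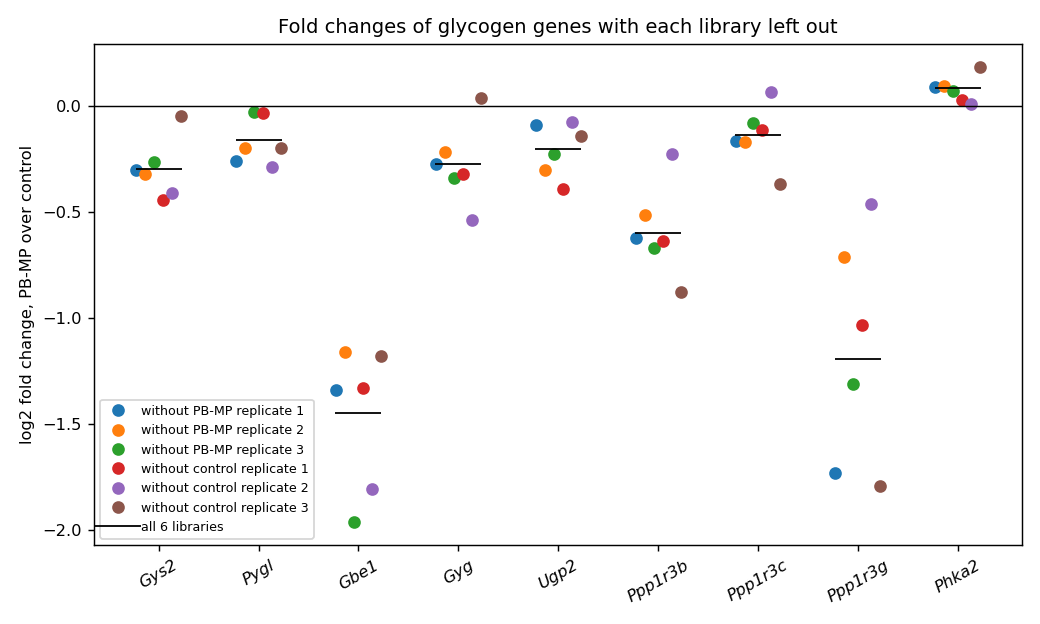
Log2 fold change, PB-MP over control (vertical axis), of the 9 glycogen genes with all 6 libraries (bars) and with each library left out in turn (points). Gbe1 stays between -1.97 and -1.16, and the points of Ppp1r3g spread the widest, from -1.79 to -0.46.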

How the data were processed

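Liver RNA of 6 libraries was profiled by poly(A) selection and a directional kit, per the labels' protocols. For each gene symbol the authors deposited an unnormalized read count, in 56674 rows. The submitters' processing notes name bcl2fastq and GRCm39 without roles; no source used here gives the aligner, the counting program, the annotation or the strand setting. The 9 genes and the other lists were chosen with earlier results of these data known.

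Genes were kept by filterByExpr of edgeR (minimum count 10, minimum total 15), which left 17871. Libraries were TMM-scaled, and PB-MP was compared with control with edgeR 4.0.16 in R 4.3.3 (quasi-likelihood F test, Benjamini-Hochberg adjustment, threshold 0.05). The SE was taken as the log2 fold change over the root of F, and 95% intervals from the t distribution of the fit. Log2 CPM for profiles used a prior count of 2. DESeq2 1.42.0, limma-voom (limma 3.58.1), other scalings, filters and left-out libraries were alternatives. The test was tested on simulated data (17302 genes tested, 200 changed, each at 1 CPM or more); with no changed gene it made 0 calls. No pair of libraries agreed within sampling noise (chi-square per degree of freedom at least 181). Pathway genes were named as those of each list past the threshold, or otherwise the 2 with the smallest p among those averaging 1 CPM or more; 1 gene so named is not reported here. Transcript lengths came from GENCODE M21 on GRCm38, not the build in the notes, and served for levels per kilobase and overlaps only.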

Additional observations from a re-analysis of the deposited data

How the results depend on the processing

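In each of the 18 alternatives 0 of the 9 glycogen genes passed the threshold (8 were tested under the stricter filter). Over all genes DESeq2 called 513, the fit without control replicate 1 called 1, and the fit without control replicate 2 and PB-MP replicate 3 called 2, with 0 to 1 over the fits that leave out a single library. Of the other pathway genes DESeq2 called 1. The log2 fold changes of Gbe1, Gys2, Ppp1r3b and Phka2 kept their direction in every alternative, at -2.32 to -1.16, -0.44 to -0.05, -0.88 to -0.23 and 0.01 to 0.30. With library size only, those of Ppp1r3c, Pygl and Ugp2 turned to 0.086, 0.056 and 0.020. That of Ppp1r3c also turned to 0.071 with quality weights, to 0.066 without control replicate 2 and to 0.14 without control replicate 2 and PB-MP replicate 3; with single libraries left out it ran from -0.37 to 0.07. That of Gyg turned to 0.037 without control replicate 3, within a range of -0.54 to 0.04 over single libraries left out. That of Ppp1r3g turned to 0.29 with limma-voom and to 1.03 with quality weights; the stricter filter (CPM of at least 1 in 3 libraries) removed this gene and gave no value. The cause was not tested. The deviations of same-numbered replicates had low correlations (-0.0869, 0.0935 and 0.0816). The share of 18S ribosomal RNA, however, was highest in replicate 2 and lowest in replicate 3 in both diets. With 3 libraries per diet, these correlations cannot settle whether the number pairs the libraries. With the replicate block 0 genes were called, 0 of them glycogen genes. An unadjusted p below 0.05 was then found for 1836 genes, against 2161 without the block. Ppp1r3g had 1 to 59 reads per library, the single read being in the library with the most counted reads.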
